A study of Mus musculus with 2 samples.

Results

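The genes of mitosis and of the spindle checkpoint were examined in immature mouse oligodendrocytes with and without a conditional knockout of Seh1l. The members were chosen by symbol from a list of 50 genes, made of mitotic kinases and cyclins and of kinetochore, checkpoint, condensin and cytokinesis genes. All 50 were found in both libraries, out of 18651 genes listed in either. RNA sequencing was done on 1 control library, labelled wild type, and 1 Seh1cKO library, labelled mutant, both of the strain C57BL/6. In both groups oligodendrocyte precursors were immunopanned from the cortices of pups aged 4 to 7 days, on anti-GalC and then on anti-O4. They were grown with PDGF-AA, CNTF, bFGF and NT3, then switched to 60 nM triiodothyronine (T3) without PDGF-AA, bFGF and NT3, and taken on day 2. The sources used here do not name the Cre driver, the deleted exons or the number of pups pooled.

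In a dividing cell the mitotic proteins act in order. First come the cyclins that activate Cdk1, then the kinases, spindle proteins and kinetochore proteins, and last the proteins that cut the cell apart. The spindle checkpoint holds the cell in metaphase until every kinetochore has caught microtubules. Oligodendrocyte precursors divide in response to PDGF-AA, and withdrawal of the mitogen with addition of T3 drives cell cycle exit and differentiation. Seh1 belongs to the Y-complex of the nuclear pore, a complex that also sits on kinetochores in mitosis of mammalian cells.

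All 50 mitotic genes were higher in Seh1cKO, at ratios of 1.07 to 2.04 with a median of 1.45. A level is given in CPM, reads per 1000000 reads of the library, and a ratio is the CPM in Seh1cKO over that in control. The range in brackets is an exact 95% interval for counting error. It holds nothing of the variation between cultures, and with 1 library per group no test of the genotype was possible. The background was 60.9%, the share of the 13758 genes measured (mean of at least 1 CPM) that were higher in Seh1cKO. Together the members took 37435 of 20730083 reads in control, or 0.181%, and 52051 of 20599564 reads in Seh1cKO, or 0.253%. That is a summed level of 1806 and 2527 CPM and a ratio of 1.40 (1.38 to 1.42). In bulk RNA, more dividing cells and more mitotic RNA per dividing cell cannot be told apart.

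Most of these differences were modest in size. On the scale log2(CPM + 1), the median difference of the members was 0.51 (0.43 to 0.58, an order-statistic interval over members), against 0.07 over all measured genes. Of the members, 17 were at least 1.5-fold higher on that scale, against a background of 9.43%, and none was at least 2-fold higher, against 2.86%. None was lower (background 39.1%), and so none was 1.5-fold lower (3.52%) or 2-fold lower (1.29%). The counting interval lay above 1 for 49 of 50 members, against a background of 35.5%, and Cdca3 was the exception. With median of ratios scaling 8 members passed 1.5-fold, and the 50 stayed higher.

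**Figure D1:**
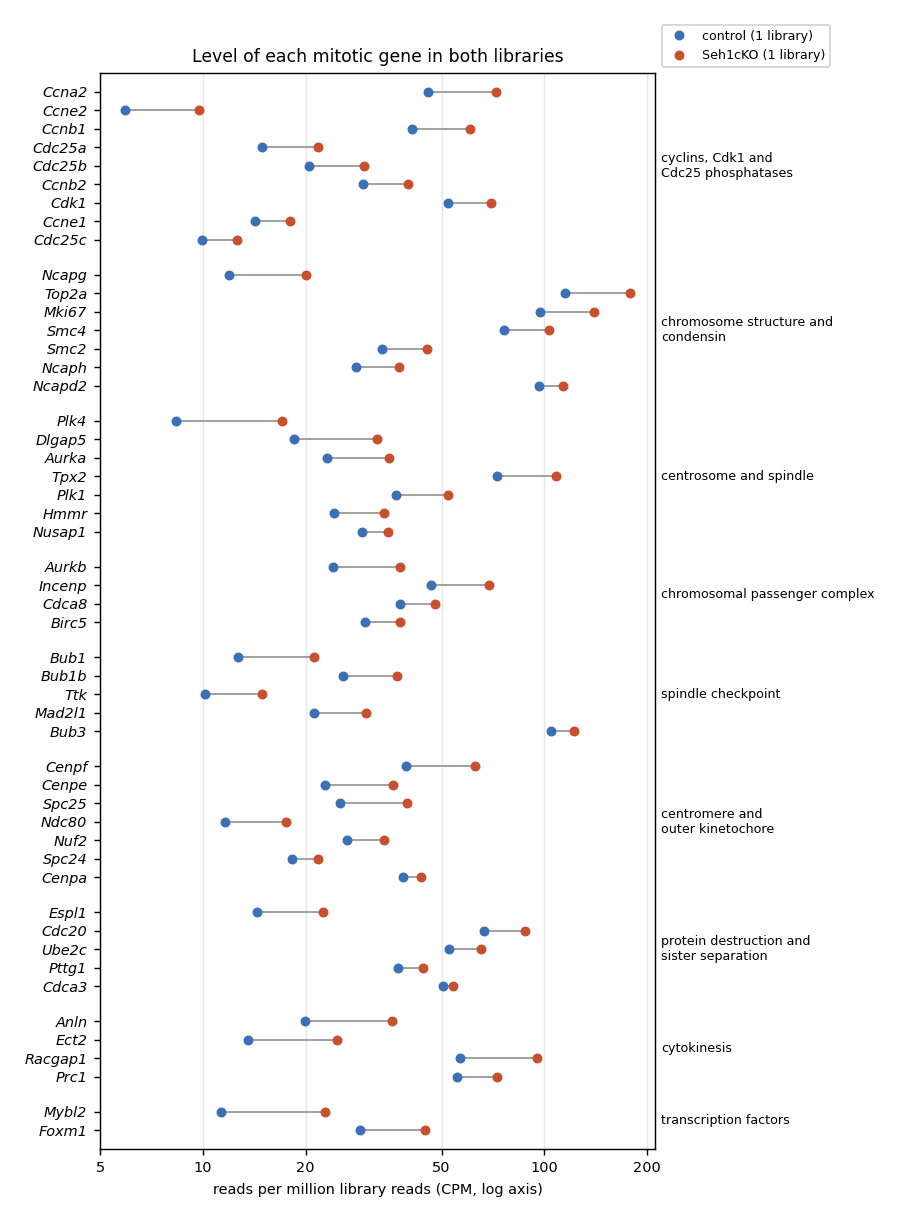
Level of each of the 50 genes in CPM (log axis) in the control (blue) and Seh1cKO (red) library, 1 library each, grouped by role. Each red point lies to the right of its blue one; Top2a is the most abundant at 115 and 178 CPM and Ccne2 the least at 5.93 and 9.76 CPM.

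The libraries differed in more than the mitotic genes. Seh1l, the targeted gene, stood at 32.1 CPM in control against 18.5 CPM in Seh1cKO, a ratio of 0.577 (0.508 to 0.656). All 8 precursor and 10 differentiation markers had reads in both libraries. All 10 markers of differentiating oligodendrocytes were lower, with a summed level of 4989 CPM in control and 1063 CPM in Seh1cKO. Of 8 precursor markers 5 were higher, a share near the background of 60.9% of measured genes, at 2491 and 2874 CPM in sum. Markers of other cells were present in both. Fibroblast and mural markers were higher in Seh1cKO for 10 of 10 (221 and 641 CPM in sum), against the background of 60.9%. So were 7 of 8 epithelial markers (11.8 and 220 CPM) and 6 of 7 microglia and macrophage markers (8.39 and 18.0 CPM). Just 4 of the 7 microglia and macrophage markers reached a mean of 1 CPM, and the counting interval of 2 of these 4 held 1. Of 7 endothelial markers 5 were higher (27.2 and 57.8 CPM), a share near that background. Among these 5, Cldn5 had 0 reads in control and 1 in Seh1cKO. Of 8 astrocyte markers 6 were lower (8828 and 5290 CPM), against a background of 39.1%. Of 7 neuron markers 4 were higher (447 and 468 CPM), near the background of 60.9%. Xist had 18 reads in control and 7025 in Seh1cKO, and the Y-linked gene Eif2s3y 1705 and 1, so genotype and the sex of the cells cannot be told apart. Which cells carried the mitotic reads was not tested.

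The mitotic genes are known for a shared promoter layout, in which CCAAT boxes, bound by NF-Y, lie upstream of a cell cycle homology region with the core TTTGAA, bound by the MuvB complexes. RefSeq promoter windows of GRCm38.p6, from 250 bases before to 50 after a start site, were at hand for 40 of the 50 genes. Motifs were searched on both strands, so ATTGG counts for CCAAT, and the reverse form TTCAAA also counts for TTTGAA. A match to CCAAT was found for 29 of the 40 genes (72.5%), against 41.1% of all 27025 genes with a window and 43.0% of the measured ones. TTTGAA was found for 26 (65.0%), against 20.2% and 14.0%. In 24 genes (60.0%) it began in or after the last 60 bases before the start site, against 6.36% of all genes. Both motifs shared 1 window in 24 genes (60.0%), against 7.97%, while TTCGAA, a variant of the core, was found for 4 (10.0%), against 1.80%.

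The 150 bases before the start site are shown for 5 genes whose window starts at the outer end of the gene, with CCAAT and TTTGAA in capitals on either strand. Cdk1 (chr10:69352913-69353062, minus strand), Cdc20 (chr4:118437344-118437493, minus strand) and Ube2c (chr2:164769779-164769928, plus strand) hold both motifs. Plk4 (chr3:40799801-40799950, plus strand) and Birc5 (chr11:117849087-117849236, plus strand) hold neither in the window searched.
Cdk1: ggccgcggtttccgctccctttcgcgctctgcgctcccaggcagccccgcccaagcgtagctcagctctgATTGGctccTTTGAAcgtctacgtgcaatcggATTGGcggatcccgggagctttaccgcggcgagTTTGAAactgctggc
Cdc20: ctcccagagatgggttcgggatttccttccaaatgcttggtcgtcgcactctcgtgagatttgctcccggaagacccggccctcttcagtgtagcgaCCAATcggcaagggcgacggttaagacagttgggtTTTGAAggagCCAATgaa
Ube2c: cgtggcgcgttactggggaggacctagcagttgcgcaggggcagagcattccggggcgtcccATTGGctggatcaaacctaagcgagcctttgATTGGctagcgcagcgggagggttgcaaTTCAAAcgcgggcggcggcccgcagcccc
Plk4: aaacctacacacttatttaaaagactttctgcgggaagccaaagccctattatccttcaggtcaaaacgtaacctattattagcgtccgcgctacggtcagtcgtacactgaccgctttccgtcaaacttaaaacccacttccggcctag
Birc5: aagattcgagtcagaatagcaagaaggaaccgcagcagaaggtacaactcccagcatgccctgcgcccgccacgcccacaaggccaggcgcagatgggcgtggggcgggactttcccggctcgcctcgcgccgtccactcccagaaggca
In Cdk1 the TTTGAA nearest the start began at position -15, in Cdc20 at -18 and in Ube2c at -29, counted back from the start site.

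Genes with and without these letters overlapped in their ratios. The 24 genes with both motifs in 1 window had a median ratio of 1.41, from 1.07 to 1.82, and the other 16 a median of 1.45, from 1.18 to 2.04. The 9 genes with neither motif held the 2 highest ratios of the whole list, those of Plk4 and Mybl2, but also Pttg1 (1.18), Nusap1 (1.20) and Birc5 (1.27). Their median was 1.28. The windows of Mybl2 (163054385 to 163054684) and Pttg1 (43425932 to 43426231) lie inside the gene. The bases before the outer ends of these genes, at 163054327 and 43427463, were therefore not searched. The same limit holds for Cdca3, Ect2 and Ncapd2, which have both motifs, and for Cdc25b, which has CCAAT without TTTGAA.

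The members include 2 transcription factors known to activate mitotic genes. By log2 difference Mybl2 ranked 1 and Foxm1 16 of the 50. Mybl2, which encodes B-Myb, the partner of MuvB late in S phase (chromosome 2, 163054327 to 163084688 in GRCm38), stood at 11.3 CPM in control against 22.8 CPM in Seh1cKO. Its ratio of 2.02 (1.72 to 2.37) gave the largest log2 difference of the 50, 0.95, above those of 96.7% of measured genes. Foxm1, the forkhead factor that joins B-Myb and MuvB before mitosis, stood at 28.8 and 44.8 CPM, with a ratio of 1.55 (1.40 to 1.72). The authors' deposited table of differing genes lists 2 of the 50 members, Mybl2 with a log2 fold change of 1.02 and Plk4 with 1.02. The authors' deposited table holds 896 genes with no absolute log2 fold change under 1.00, and 4.26% of measured genes are listed in it as higher.

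All 9 genes of the cyclins, Cdk1 and the Cdc25 phosphatases were higher, with a median ratio of 1.45, and 2 of them, Ccna2 and Ccne2, passed 1.5-fold on the log2(CPM + 1) scale. Ccna2, the cyclin of S phase and of mitotic entry, stood at 45.7 CPM in control against 72.2 CPM in Seh1cKO, a ratio of 1.58 (1.45 to 1.71). Ccne2, a cyclin of the start of S phase, was the least abundant member at 5.93 and 9.76 CPM, with a ratio of 1.64 and a wide interval (1.31 to 2.08). The gene span of Ccne2 overlaps that of Ints8, at 27.2 and 29.3 CPM, over 5622 bases. Ccne1, the relative of Ccne2, stood at 14.2 and 18.0 CPM, with a ratio of 1.27 (1.09 to 1.48), so the intervals of the E-type cyclins overlapped.

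Cdk1, the kinase that drives entry into mitosis (chromosome 10, 69335146 to 69352912), stood at 52.3 CPM in control against 70.0 CPM in Seh1cKO, a ratio of 1.34 (1.23 to 1.45). Ccnb1, its main mitotic cyclin, was at 40.9 and 60.5 CPM, and Ccnb2, a second B-type cyclin, at 29.5 and 40.0 CPM. Compared per transcript length, Cdk1, Ccna2, Ccnb1 and Ccnb2 lay close together, from 16.1 to 19.2 FPKM (deposited values, scaled by transcript length and library size) in control and from 24.3 to 26.1 FPKM in Seh1cKO. The Cdc25 phosphatases remove the brake on Cdk1. Cdc25a was at 14.9 and 21.7 CPM, Cdc25b at 20.4 and 29.6 CPM and Cdc25c at 9.94 and 12.6 CPM, with ratios of 1.46, 1.45 and 1.27 whose intervals overlapped.

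All 7 genes of chromosome structure were higher, with a median ratio of 1.35. Top2a, the topoisomerase that untangles sister chromatids, was the most abundant member by reads, at 115 CPM in control against 178 CPM in Seh1cKO, a ratio of 1.55 (1.47 to 1.63). Mki67, the coat protein of mitotic chromosomes and the usual marker of cycling cells (chromosome 7, 135689784 to 135716450), stood at 97.0 and 139 CPM, with a ratio of 1.44 (1.36 to 1.52). The 5 subunits of condensin I, the ring that compacts mitotic chromosomes, spanned a range. Ncapg, at 11.9 and 20.0 CPM, had a ratio of 1.68 (1.43 to 1.97) and Ncapd2, at 96.7 and 113 CPM, a ratio of 1.17 (1.10 to 1.24), and those intervals did not overlap. Reads of overlapping genes cannot be told apart where the strand is unknown, and 10 members overlap a listed gene. The gene span of Ncapg overlaps that of Lcorl over 3367 bases. Lcorl was at 74.3 and 32.8 CPM, in the other direction. Smc2 (1.35), Smc4 (1.35) and Ncaph (1.34) lay between. Per transcript length the subunits differed 6.60-fold in control, from Ncapg at 3.20 FPKM to Ncapd2 at 21.1 FPKM, and 4.65-fold in Seh1cKO, from Ncapg at 5.36 FPKM to Smc4 at 24.9 FPKM, with Ncapd2 just below at 24.8 FPKM.

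The 7 centrosome and spindle genes had a median ratio of 1.49. Plk4, the kinase that starts centriole duplication (chromosome 3, 40799951 to 40816883), stood at 8.35 CPM in control against 16.99 CPM in Seh1cKO. Its ratio of 2.04 (1.69 to 2.46) was the highest of the 50, and its log2 difference of 0.94 stayed under 1 because of the added count. Dlgap5, which stabilises kinetochore fibres, followed at 18.4 and 32.4 CPM, a ratio of 1.76 (1.55 to 2.00). Aurka, the centrosomal Aurora kinase, was at 23.2 and 35.1 CPM, and Tpx2, its activator on the spindle, at 72.7 and 108 CPM, with ratios of 1.52 (1.35 to 1.71) and 1.49 (1.40 to 1.59). This pair lay within each other's intervals. Plk1, the polo kinase of mitotic entry and spindle assembly, was at 36.7 and 52.1 CPM (ratio 1.42), and Hmmr, a spindle microtubule protein, at 24.3 and 34.0 CPM (1.40). Nusap1, a microtubule bundler around chromosomes, was at 29.1 and 34.9 CPM, the lowest ratio of the group at 1.20 (1.07 to 1.34).

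The chromosomal passenger complex corrects wrong attachments of microtubules to kinetochores. Its kinase Aurkb stood at 24.0 CPM in control against 37.7 CPM in Seh1cKO, a ratio of 1.57 (1.40 to 1.76), and its scaffold Incenp at 46.5 and 68.6 CPM, with a ratio of 1.48 (1.36 to 1.60). The targeting subunits differed less. Birc5, also called survivin, stood at 29.8 and 37.7 CPM, with a ratio of 1.27 (1.14 to 1.41), and Cdca8, also called borealin, at 37.8 and 48.0 CPM, with a ratio of 1.27 (1.15 to 1.39). The interval of Aurkb did not overlap that of Cdca8, and just overlapped that of Birc5. Per transcript length Birc5 was the most abundant subunit in both libraries, at 27.2 and 34.7 FPKM, and Aurkb the least, at 12.1 and 19.0 FPKM.

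**Figure D2:**
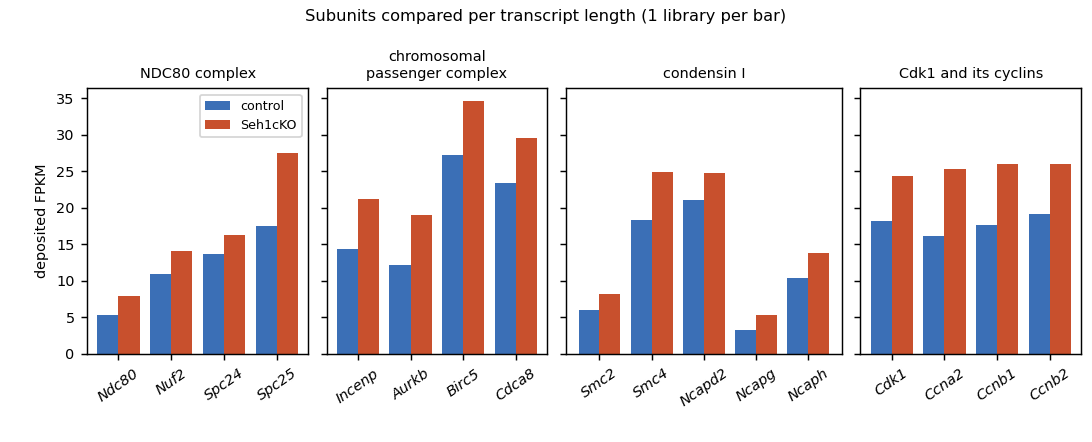
Deposited FPKM of the subunits of 4 mitotic assemblies in control (blue) and Seh1cKO (red), 1 library per bar. Each red bar is higher than its blue one, and Cdk1 and its cyclins, at 16.1 to 19.2 FPKM in control, lie closer together than the subunits of condensin I, at 3.20 to 21.1 FPKM.

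Of the 5 spindle checkpoint genes, 4 lay near each other and Bub3 lay below. Bub1, the kinase that brings the checkpoint proteins to the kinetochore, stood at 12.6 CPM in control against 21.2 CPM in Seh1cKO, a ratio of 1.68 (1.44 to 1.96). Bub1b, the BubR1 subunit of the mitotic checkpoint complex, was at 25.8 and 37.1 CPM (ratio 1.44), the kinase Ttk, also called Mps1, at 10.1 and 14.9 CPM (1.47), and Mad2l1, which binds and blocks Cdc20, at 21.2 and 30.0 CPM (1.41). Bub3, an adaptor that cells also express outside mitosis, was much more abundant, at 104 and 122 CPM or 49.8 and 58.4 FPKM. Its ratio was 1.17 (1.11 to 1.24), an interval below those of Bub1, Bub1b and Mad2l1 without overlap.

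The 7 centromere and outer kinetochore genes were all higher, with a median ratio of 1.51. Cenpf, Cenpe and Spc25 were at least 1.5-fold higher on the log2(CPM + 1) scale, and Ndc80, with a ratio of 1.51, was short of it on that scale. Cenpf, a large kinetochore corona protein, stood at 39.3 CPM in control against 62.7 CPM in Seh1cKO, a ratio of 1.59 (1.46 to 1.74). Cenpe, the kinesin that moves chromosomes to the metaphase plate, stood at 22.8 and 36.1 CPM, with a ratio of 1.59 (1.41 to 1.78). Cenpa, the histone variant that marks the centromere, stood at 38.6 and 43.5 CPM, with a ratio of 1.13 (1.02 to 1.24), the second lowest of the 50 members. The NDC80 complex, the main microtubule grip of the kinetochore, was not uniform. Spc25, at 25.1 and 39.5 CPM, had a ratio of 1.57 (1.41 to 1.76) and its binding partner Spc24, at 18.3 and 21.8 CPM, a ratio of 1.19 (1.04 to 1.37). Ndc80 (11.6 and 17.5 CPM, ratio 1.51) and Nuf2 (26.3 and 33.8 CPM, ratio 1.28) lay between. In control Ndc80 was the lowest of the complex at 5.25 FPKM and Spc25 the highest at 17.5 FPKM, and the order of the 4 subunits was the same in Seh1cKO, from 7.93 to 27.5 FPKM.

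The genes of protein destruction and sister separation had the lowest median ratio of the 9 roles, 1.25. Ube2c, the ubiquitin-conjugating enzyme of the anaphase-promoting complex (APC/C), was the most abundant member per length, at 57.5 FPKM in control and 71.6 FPKM in Seh1cKO. In reads it stood at 52.4 and 65.3 CPM, with a ratio of 1.25 (1.15 to 1.35). Cdc20, the activator of the APC/C and the target of the checkpoint, stood at 66.6 and 88.0 CPM, with a ratio of 1.32 (1.23 to 1.42). Pttg1, or securin, which the APC/C destroys to free separase, stood at 37.4 and 44.2 CPM, with a ratio of 1.18 (1.07 to 1.30). Espl1, separase itself, stood at 14.4 and 22.5 CPM, with a ratio of 1.56 (1.35 to 1.81) whose interval did not overlap that of Pttg1. Cdca3, a trigger of mitotic entry that promotes removal of Wee1 (chromosome 6, 124829530 to 124833701), was at 50.6 and 54.1 CPM. Its ratio of 1.07 (0.983 to 1.17) was the lowest of the 50 and could not be told from 1 at this depth.

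Of the 4 cytokinesis genes, 3 were among the 6 members with the largest log2 difference. Ect2, the exchange factor that activates RhoA at the cell equator, stood at 13.6 CPM in control against 24.7 CPM in Seh1cKO, a ratio of 1.82 (1.57 to 2.11). Anln, or anillin, the scaffold of the contractile ring, stood at 19.9 and 35.8 CPM, with a ratio of 1.80 (1.60 to 2.04). Racgap1, the centralspindlin subunit that recruits Ect2, stood at 56.4 and 95.002 CPM, with a ratio of 1.68 (1.56 to 1.81). Prc1, which bundles the microtubules of the spindle midzone, was at 55.4 and 72.5 CPM, and its ratio of 1.31 (1.21 to 1.41) lay below the other 3 without overlap. Its gene span covers that of Rccd1 over 21669 bases, a gene at 8.54 and 8.30 CPM. RhoA regulators and anillin also act in cells that do not divide, and fibroblast and epithelial markers were higher in the same library (221 and 641, and 11.8 and 220 CPM in sum). Their part in these values was not tested.

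**Figure D3:**
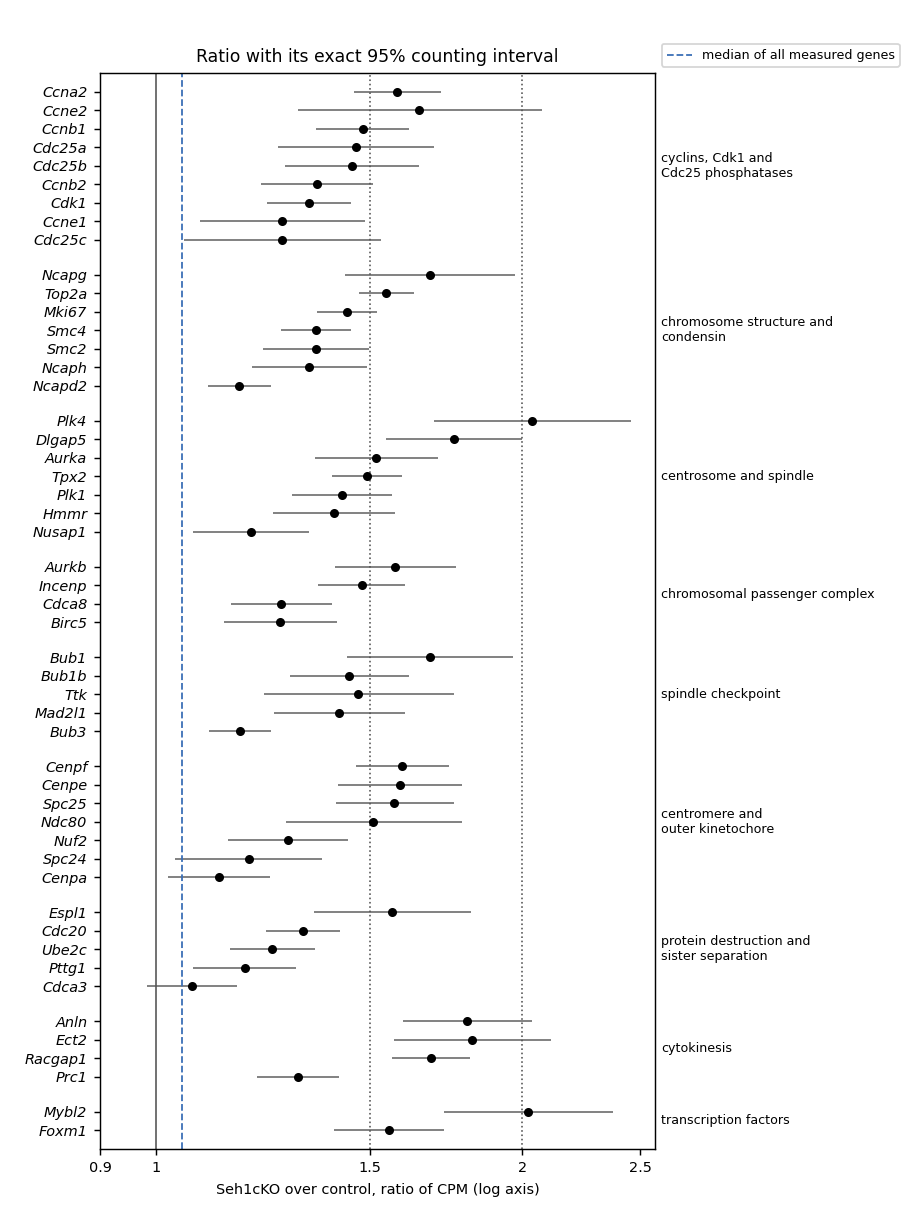
Ratio of CPM in Seh1cKO over control (log axis) with its exact 95% counting interval for each of the 50 genes, grouped by role; solid line, equality; dotted lines, 1.5 and 2; dashed line, the median ratio of all measured genes (1.05). Cdca3 at 1.07 is the member whose interval reaches equality, and Plk4 and Mybl2 lie beyond 2.

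Short transcripts lay lower in the list than long ones. Up to 1500 bases of transcript, the 7 members had a median log2 difference of 0.24, against 0.01 for all 2295 measured genes of that length. Above 5000 bases, the 7 members had a median of 0.62, against 0.14 for all 2444 genes. Every length class of all measured genes showed the same order on a smaller scale, and all 50 members lay above the median of their class and 45 above its upper quartile. Across the 50 members length and log2 difference had a Spearman correlation of 0.54, and across the 13758 measured genes one of 0.14; all points come from the same pair of libraries. Cenpa, Cdca3, Pttg1, Ube2c, Birc5 and Spc24 are all in the shortest class, and Spc25, at 0.63, is the one member of that class past 1.5-fold. After subtraction of the class median, a step chosen after seeing the data, the median of the members was 0.44 and 10 passed 1.5-fold.

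**Figure D4:**
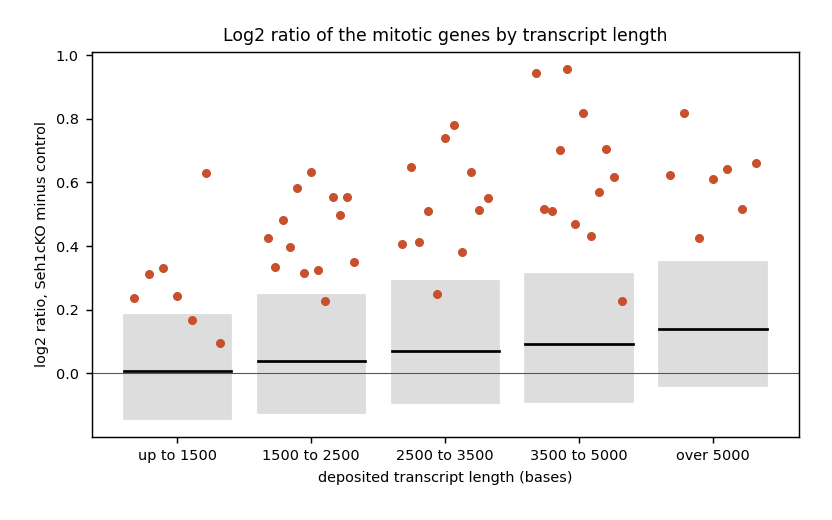
Log2 difference (Seh1cKO minus control, of CPM + 1) of the 50 members (red points) in 5 classes of deposited transcript length, with the median (black line) and middle quartiles (grey) of all measured genes of the class. Within a class the points are ordered by length, and each lies above the black line.

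The other genes of the pathway were described from lists that share no gene with the 50. Of 71 further mitotic genes 69 were higher (background 60.9%) and 24 at least 1.5-fold higher (background 9.43%), with a median log2 difference of 0.51, the same as that of the members to 2 decimals. Kntc1, of the complex that brings dynein to kinetochores, stood at 8.06 CPM in control against 16.5 CPM in Seh1cKO, and Wee1, the kinase that inhibits Cdk1, at 11.1 and 21.7 CPM. Aspm, a spindle pole protein, was at 21.1 and 37.2 CPM. At the other end stood Cenpq, an inner kinetochore protein, at 20.9 and 17.9 CPM, the checkpoint protein Mad1l1 at 39.8 and 39.2 CPM, and Ube2s, which extends ubiquitin chains for the APC/C, at 221 and 224 CPM.

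DNA replication genes, which act before mitosis, were higher in 36 of 36 cases (background 60.9%) and at least 1.5-fold higher in 20 (background 9.43%), with a median log2 difference of 0.63. Pole, the leading-strand polymerase, stood at 10.7 CPM in control against 24.9 CPM in Seh1cKO, the helicase subunit Mcm5 at 28.0 and 58.2 CPM and the helicase loader Cdc6 at 4.73 and 10.6 CPM. The lowest at a mean of at least 5 CPM were the origin protein gene Orc6 at 30.9 and 33.4 CPM and the clamp loader genes Rfc2 at 50.7 and 55.4 CPM and Rfc5 at 21.3 and 24.9 CPM. Of 18 E2F and DREAM genes 13 were higher, against a background of 60.9%, and the counting interval of 8 of the 18 held 1. E2f8 (5.50 and 12.7 CPM), E2f7 (3.71 and 7.77 CPM) and E2f2 (5.21 and 10.3 CPM) led, while Lin37 (23.1 and 20.3 CPM), E2f5 (31.3 and 28.6 CPM) and Rbl2 (36.0 and 34.7 CPM), a pocket protein of resting cells, were at the other end.

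The genes of the APC/C lay near all measured genes, and the median of the cohesin list was somewhat higher. The APC/C list of 15 genes holds core subunits and also Fzr1, an activator (74.6 and 76.9 CPM). Its median log2 difference was 0.01, with 8 higher (background 60.9%), Fzr1 among them, and 7 lower. None passed 1.5-fold in either direction. The median of the list was negative (-0.07) with median of ratios scaling. Anapc2 was the highest at 148 CPM in control against 165 CPM in Seh1cKO, followed by Anapc1 (114 and 124 CPM) and Anapc5 (258 and 279 CPM), and Anapc16 (68.5 and 64.9 CPM), Anapc4 (94.5 and 89.7 CPM) and Cdc27 (61.4 and 58.3 CPM) were the lowest. The APC/C partners among the members, Ube2c and Cdc20, had ratios of 1.25 and 1.32, while those of the APC/C list ranged from 0.948 to 1.11. Cohesin, which holds sister chromatids together, and its regulators had a median of 0.14 over 10 genes, against 0.07 over all measured genes. In this list 9 were higher (background 60.9%) and 1 lower. The counting interval lay above 1 for 6 of the 10 (background 35.5%) and below 1 for 1. After subtraction of the length class median, the cohesin median was 0.0045. Pds5a was at 16.2 and 24.95 CPM, Stag1 at 34.9 and 41.5 CPM and Smc1a at 120 and 139 CPM, and at the other end the loader subunit Mau2 was at 64.3 and 57.3 CPM, Wapl at 53.5 and 56.6 CPM and Smc3 at 89.4 and 94.7 CPM.

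In the Y-complex, to which Seh1 belongs, 8 of 10 genes were higher (background 60.9%) and Seh1l and Sec13 (165 and 146 CPM) lower. The highest were Nup85 at 39.6 CPM in control against 58.2 CPM in Seh1cKO, Nup160 at 13.7 and 20.1 CPM and Nup98, whose transcript also encodes Nup96 of the complex, at 33.7 and 45.4 CPM. Nup107, at 18.8 and 23.7 CPM, was the lowest of the 8 that were higher. The median log2 difference of all 10 was 0.40, and none passed 1.5-fold upward.

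**Figure D5:**
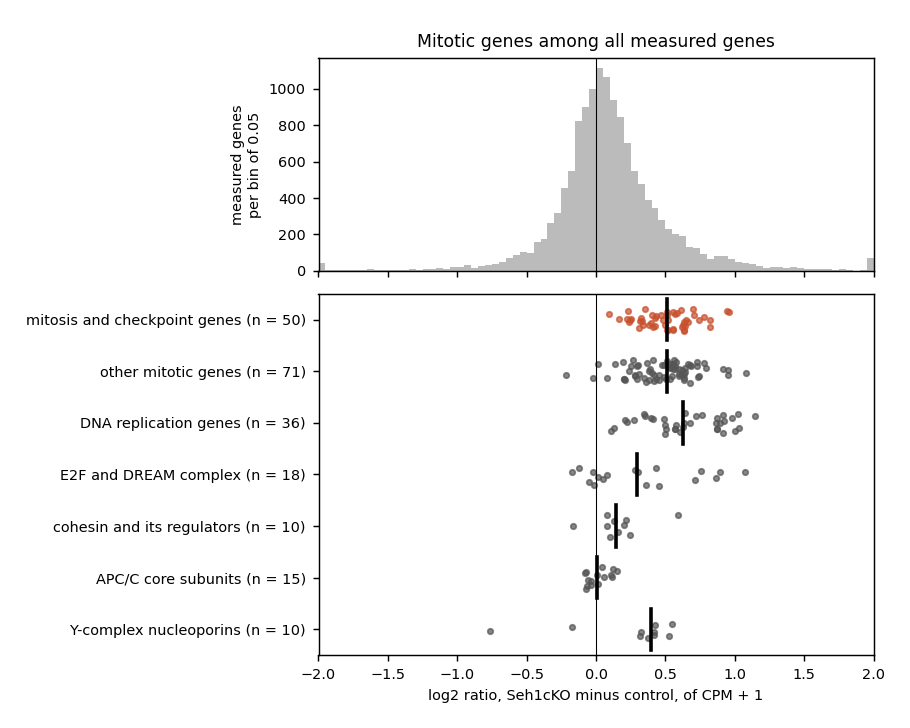
Top, number of measured genes per bin of 0.05 in log2 difference (Seh1cKO minus control, of CPM + 1), with values beyond the axis in the end bins; bottom, each gene of the 50 members (red) and of 6 further lists (grey), with the list median as a black bar. The members (median 0.51), other mitotic genes (0.51) and DNA replication genes (0.63) lie to the right of the APC/C list (0.01), which includes Fzr1.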

How the data were processed

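Each library's deposited gene table gives an expected count, an FPKM value and a transcript length, per the file headers. HTSeq, StringTie and mm10 are named in the submitters' processing notes, with no word on which of them made the columns. Aligner and strand: not given in the sources used here. Another deposited table holds the authors' log2 fold changes, p-values and false discovery rates from an unnamed test. The number of unmapped sample columns was 0.

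Counts, not whole for 29.3% and 29.5% of genes, were rounded (20730083 and 20599564 reads) and scaled to CPM; a gene missing from 1 table was set to 0. The log2 difference, log2(CPM + 1) in Seh1cKO minus control, understates low genes. CPM ratios carry exact Clopper-Pearson 95% intervals for counting error; without molecular identifiers these can be too narrow. A count of 0 allows 3 reads, or 0.145 and 0.146 CPM. Measured genes have a mean of 1 CPM or more, and all 50 members passed. Python 3.11.15, numpy 2.4.6, pandas 2.3.3 and scipy 1.17.1 were used, and the intervals were tested on simulated data. Of 18651 identifiers 18611 matched RefSeq on GRCm38.p6, the source of coordinates and promoters. Members with no window were Aurkb, Ccna2, Ccne2, Cdc25c, Dlgap5, Foxm1, Incenp, Smc4, Spc24 and Tpx2.

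The members, roles and lists were chosen with earlier results of these data known. All members could be named, and of each pathway list the 3 highest and 3 lowest log2 differences at a mean of 5 CPM or more. Alternatives were pseudocounts of 0.1 and 5, median of ratios and upper quartile scaling, FPKM, no floor, a floor of 5 CPM and a total without chromosomes X and Y.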

Additional observations from a re-analysis of the deposited data

How the results depend on the processing

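All 50 members stayed higher, and above the median of all measured genes, under each alternative, and their median log2 difference ranged from 0.44 to 0.53. The number at least 1.5-fold higher, 17, was 9 with a pseudocount of 5, 8 with median of ratios scaling and 10 after subtraction of the length class median, which was added once the data had been seen. The number at least 2-fold higher, 0, was 2 with a pseudocount of 0.1. The ratio of summed levels, 1.40, was 1.33 with median of ratios scaling, 1.36 with upper quartile scaling and 1.35 on summed FPKM. The median of the APC/C list, Fzr1 included, turned negative with median of ratios scaling (-0.067), upper quartile scaling (-0.036) and the length class step (-0.045). The cohesin median was 0.068 and 0.0045 with the first and last of these. The median of other mitotic genes was 0.38 with a pseudocount of 5. The median of all measured genes, 0.07, was -0.0050 with median of ratios scaling. The causes were not tested, apart from the added count, which shrinks low genes. Among the 10 members that overlap another listed gene and the 18 whose counts are not whole, reads may be split between genes; without either set, also an addition after seeing the data, the median was 0.50 and 0.51. No paired analysis was possible because each group holds 1 library. Depth set the interval of each ratio, which was widest on a log scale for Ccne2, the least abundant member.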
